A study of Mus musculus with 9 samples.

Results

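The genes described are those of the aminoacyl-tRNA synthetases, 36 of the 24228 genes of the table. They were taken by gene symbol, all 36 had a row, and they comprise 20 cytosolic and 16 mitochondrial genes. Aminoacyl-tRNA synthetases join each amino acid to its transfer RNA, the step that makes the code readable by the ribosome. Nuclear genes encode one set for the cytosol and a mostly separate set for mitochondria. In animal cells several cytosolic synthetases sit together in the multisynthetase complex, held by the scaffold proteins Aimp1, Aimp2 and Eef1e1. Shortage of an amino acid leaves its tRNA uncharged, which activates the kinase GCN2 (gene Eif2ak4) and raises translation of the transcription factor ATF4, and several cytosolic synthetase genes are known ATF4 targets. A fully grown oocyte stores mRNA and protein for a period in which it makes no new transcripts.

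Gars (glycine) and Kars (lysine) are counted as cytosolic although each is known to serve both compartments, and Eprs joins glutamate and proline enzymes in 1 protein. RNA was sequenced from germinal vesicle stage fully grown oocytes of C57BL/6 females in 3 groups of 3 libraries. The first, MG, is a conditional knockout of Mtor, the kinase of the mTOR complexes, made with Cre driven by the oocyte gene Gdf9. The second, MZ, is the knockout of the same gene made with Cre driven by the oocyte gene Zp3, and the third is wild type (WT). Both drivers act in the oocyte and not in the surrounding follicle cells. All females had received 5 IU of PMSG, a gonadotropin, 46 h before collection. Their age is unresolved, since the series design gives 23 days and the labels give 6 months. The sources used here do not say whether WT females carried floxed alleles, or how many oocytes or animals a library holds. The p-values therefore measure only how these libraries vary, which may be technical.

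Values are FPKM, fragments scaled to transcript length and to library size, as deposited. The sums of FPKM over all genes were 428329 to 554305 in MG, 657851 to 677618 in MZ and 584503 to 718684 in WT, with the lowest in MG 3. The steps between low values put 1 fragment of a 2300 bp transcript at 0.585 FPKM (MG 3) to 1.06 FPKM (MZ 1), so levels of about 1 FPKM rest on single fragments. The lists of oocyte markers and of other ovarian cells were compared with the label. All 12 oocyte markers were above 0, and their summed level was 16351 to 31242 FPKM in MG, 32457 to 33817 FPKM in MZ and 27830 to 32023 FPKM in WT. The 16 granulosa and cumulus cell markers summed to 22.0 to 40.6 FPKM in MG, 24.0 to 28.3 FPKM in MZ and 21.6 to 34.3 FPKM in WT, with Amhr2 and Foxl2 at 0 in all 9 libraries. Among those above 0, Cyp19a1 averaged 13.1 FPKM in MG, 14.6 FPKM in MZ and 22.6 FPKM in WT. Kitl averaged 4.30 FPKM in MG, 2.88 FPKM in MZ and 0.634 FPKM in WT, and every MG and MZ library lay above every WT library. The 11 theca and stroma markers (Insl3 and Acta2 at 0) summed to 24.2 to 50.6 FPKM in MG, 19.9 to 75.6 FPKM in MZ and 26.8 to 37.0 FPKM in WT. Of these, Dcn averaged 12.6 FPKM in MG, 16.6 FPKM in MZ and 16.3 FPKM in WT. Of the 6 that reached 1 FPKM in 3 or more libraries, 4 were higher and 2 lower in MG than in WT on log2(FPKM + 1). In MZ 5 were higher and 1 lower than in WT. The 10 blood and endothelial markers (Cd3e at 0) summed to 19.0 to 44.4 FPKM in MG, 9.83 to 35.0 FPKM in MZ and 19.2 to 32.3 FPKM in WT. Of these, Pecam1 averaged 14.2 FPKM in MG, 9.74 FPKM in MZ and 15.4 FPKM in WT. Of the 5 that reached 1 FPKM in 3 or more libraries, 3 were higher and 2 lower in MG than in WT. In MZ 1 was higher and 4 were lower than in WT. The part of these levels in the results was not tested. Mtor had 5.25, 6.00 and 4.64 FPKM in MG, 6.55, 4.67 and 4.39 FPKM in MZ, and 3.25, 3.33 and 2.95 FPKM in WT. The whole-gene value also counts exons outside the deleted part and so does not check the deletion. MG and MZ therefore mean the libraries labelled so. MG 3 was the lowest of the 9 libraries for 9 of the 12 oocyte markers, the exceptions being Figla, Nlrp5 and Kit. Gdf9 was at 18400, 14940 and 7327 FPKM in MG, 17186, 18480 and 17781 FPKM in MZ, and 16933, 15466 and 17655 FPKM in WT. Zp3 was likewise lowest in MG 3 (555 FPKM), and the MG differences of synthetases described in full are also given without MG 3. In bulk RNA, fewer cells of a type and less RNA per cell cannot be told apart.

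The promoters of the synthetase genes were read first, because they carry a known feature of the family. RefSeq windows (GRCm38.p6, 250 bases before to 50 bases after the start of transcription) were at hand for 27 of the 36 genes, in 28 windows (Aars2 has 2). Cars, Hars, Lars, Nars, Rars, Vars, Wars, Hars2 and Pars2 had no window and were not searched. The core of the C/EBP-ATF response element through which ATF4 acts, searched as TGATGNAA on both strands, was present in 5 of the 28 windows (17.9%), against 3.97% of 32851 windows of all genes. The 5 genes were Aars, Gars, Iars, Tars and Yars, all cytosolic. The E-box CACGTG was also in 5 windows (17.9%), against 7.15% of all windows, and those genes were Aars, Ears2, Farsb, Iars and Tars. The CCAAT box, searched as CCAAT on both strands, was in 13 windows (46.4%), against 37.4%. The letters TATAAA were in 4 windows (14.3%), against 13.6%, and the site of the factor NRF1 was in 0 windows, against 0.971%. No matches of different motifs overlapped in these windows. These are matches of letters and not shown to be sites in use.

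Windows of 4 genes are shown 5′ to 3′ on the strand of the gene, with matches to TGATGNAA, CACGTG and CCAAT, or their reverse complements, in capitals. Iars is the cytosolic gene with the highest WT level, Aars holds the most matches, Yars was listed above 0 in MG alone, and Farsb had the smallest p between MG and MZ. The Iars window is chr13:49681880-49682179 (plus strand), the Aars window chr8:111033592-111033891 (plus strand), the Yars window chr4:129189653-129189952 (plus strand) and the Farsb window chr1:78488848-78489147 (minus strand).
Iars: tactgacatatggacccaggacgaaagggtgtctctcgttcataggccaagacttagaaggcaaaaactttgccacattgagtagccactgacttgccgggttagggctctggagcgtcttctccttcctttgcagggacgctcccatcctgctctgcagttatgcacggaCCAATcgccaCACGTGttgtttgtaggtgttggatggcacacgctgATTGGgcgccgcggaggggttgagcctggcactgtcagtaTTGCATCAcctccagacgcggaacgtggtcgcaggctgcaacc
Aars: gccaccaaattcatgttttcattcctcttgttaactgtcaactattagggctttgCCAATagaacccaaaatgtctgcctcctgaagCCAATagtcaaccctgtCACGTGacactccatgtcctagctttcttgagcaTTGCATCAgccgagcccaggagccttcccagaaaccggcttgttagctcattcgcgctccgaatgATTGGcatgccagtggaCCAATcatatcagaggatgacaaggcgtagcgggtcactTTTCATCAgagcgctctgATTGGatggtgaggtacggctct
Yars: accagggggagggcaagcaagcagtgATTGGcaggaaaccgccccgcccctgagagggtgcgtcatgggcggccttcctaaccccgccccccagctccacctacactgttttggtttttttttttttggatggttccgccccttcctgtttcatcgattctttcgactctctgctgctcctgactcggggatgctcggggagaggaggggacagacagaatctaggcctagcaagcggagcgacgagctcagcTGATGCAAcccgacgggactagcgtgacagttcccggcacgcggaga
Farsb: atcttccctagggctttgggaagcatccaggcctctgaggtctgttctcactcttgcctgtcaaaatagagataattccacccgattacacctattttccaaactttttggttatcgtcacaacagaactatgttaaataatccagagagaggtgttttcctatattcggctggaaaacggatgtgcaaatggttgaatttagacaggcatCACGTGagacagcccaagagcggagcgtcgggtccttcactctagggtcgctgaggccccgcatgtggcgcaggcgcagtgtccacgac
In Iars the element begins 8 bases after the start, and in Yars 4 bases after it. Aars holds it at -112 and again 10 bases after the start. Farsb has a single E-box at -39 and no match to the element.

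Fully grown oocytes held most synthetase RNA in a few genes. In WT, 6 of the 36 genes, namely Fars2, Iars, Nars, Farsb, Rars and Wars, made up 65.3% of the summed FPKM of the family. The same 6 genes made up 61.0% of it in MG and 66.7% in MZ. The WT ranges of neighbours in this order of 6 overlapped, so their order among themselves is not resolved. The gap from Wars, the tryptophan enzyme (19.8 ± 2.11 FPKM in WT, SD, n = 3), to the next gene, the serine enzyme Sars (10.1 ± 0.52 FPKM in WT), was clear of overlap. The median of the 20 cytosolic genes was 7.20 FPKM in MG, 4.73 FPKM in MZ and 6.20 FPKM in WT. That of the 16 mitochondrial genes was 1.28 FPKM in MG, 0.887 FPKM in MZ and 1.09 FPKM in WT. A WT mean under 1 FPKM was found for 5 cytosolic and 8 mitochondrial genes.

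**Figure D1:**
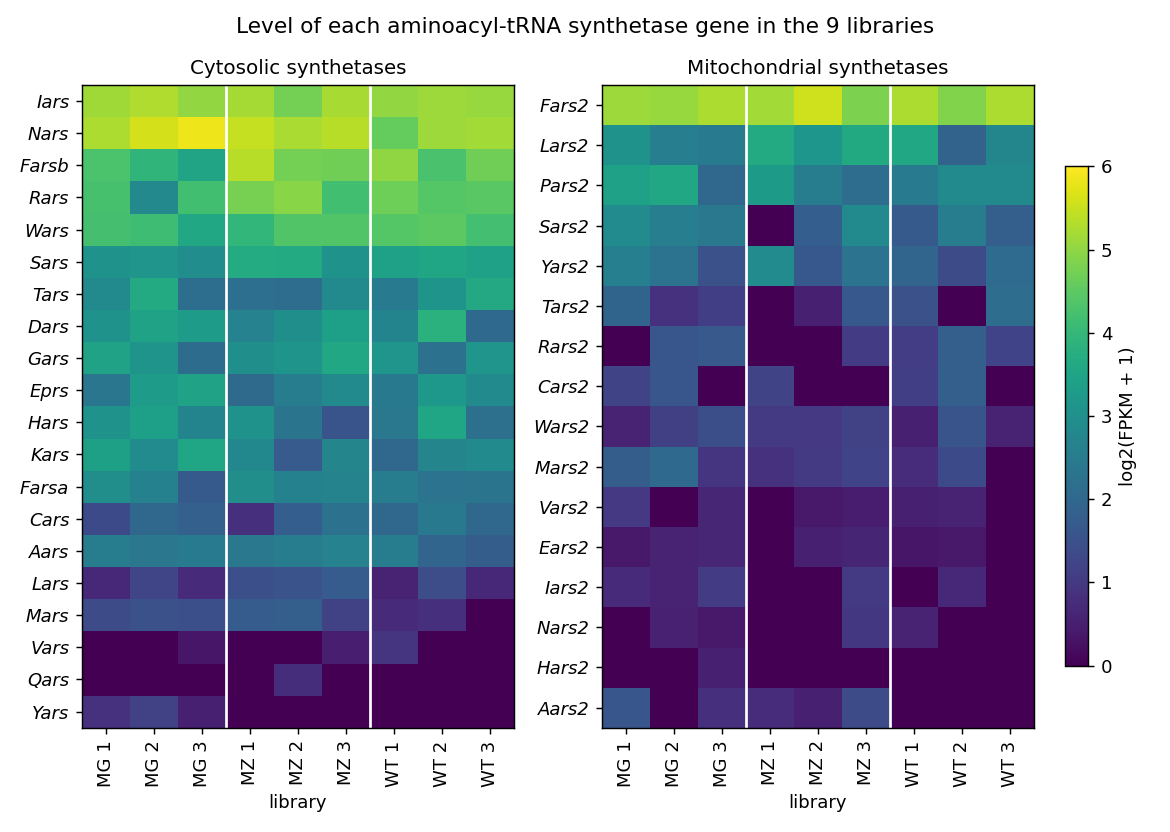
Level of each of the 36 synthetase genes as log2(FPKM + 1) in each library, cytosolic genes at the left and mitochondrial genes at the right, ordered by WT mean, with libraries from MG through MZ to WT separated by white lines. Iars, Nars and Fars2 are bright in all 9 libraries, while Qars, Vars and Hars2 are dark in nearly all.

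Iars (chromosome 13, 49682100 to 49734267, GRCm38), the isoleucine enzyme of the multisynthetase complex, varied little. It had 34.4, 37.9 and 31.8 FPKM in MG, 35.6, 26.04 and 35.9 FPKM in MZ, and 31.5, 33.6 and 32.8 FPKM in WT. The 3 groups overlapped.
Fars2 (chromosome 13, 36117412 to 36726280), the mitochondrial phenylalanine enzyme, had 34.0, 32.5 and 37.1 FPKM in MG, 35.2, 46.2 and 27.01 FPKM in MZ, and 37.2, 28.1 and 37.1 FPKM in WT. It too overlapped between the groups. Its locus overlaps Lyrm4 (65.2 to 151.1 FPKM in MG, 72.4 to 83.8 FPKM in MZ and 74.2 to 95.9 FPKM in WT) and Nrn1, and the part of shared reads in its level was not tested. The limma 95% interval of the MG-WT difference in log2(FPKM + 1) ran from -0.36 to 0.53 for Iars and from -0.49 to 0.54 for Fars2.

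The other mitochondrial genes were low. Lars2, the mitochondrial leucine enzyme, had 7.54, 4.93 and 4.55 FPKM in MG, 11.7, 7.83 and 11.6 FPKM in MZ, and 11.04, 2.75 and 5.70 FPKM in WT. Pars2, the mitochondrial proline enzyme, had 9.74, 10.9 and 3.02 FPKM in MG, 8.67, 4.86 and 3.45 FPKM in MZ, and 4.68, 6.16 and 6.37 FPKM in WT. Both genes spread widely within groups, Pars2 most in MG and Lars2 most in WT. Of the other 13 mitochondrial genes, Sars2 and Yars2 alone exceeded a WT mean of 2 FPKM.

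Amino acids with separate genes for the compartments were then read as pairs, leaving out glutamate and proline, whose cytosolic enzymes share Eprs. Of 15 such pairs (Farsa and Farsb each set against Fars2), the cytosolic gene was higher in all 9 libraries in 8 pairs, those of alanine, histidine, isoleucine, asparagine, arginine, serine, threonine and tryptophan. In WT the mitochondrial genes Aars2 and Hars2 were listed at 0, so their pairs have no ratio. Among the others the asparagine and isoleucine pairs had the largest WT ratios, each resting on 1 fragment of the mitochondrial gene in WT, so their order is not resolved. Nars averaged 47.3 FPKM in MG, 40.2 FPKM in MZ and 30.4 FPKM in WT. Nars2 had 0, 0.466 and 0.338 FPKM in MG, 0, 0 and 0.961 FPKM in MZ, and 0.521, 0 and 0 FPKM in WT, which is 1 or 2 fragments wherever it was above 0. In 3 pairs the order was the other way in all 9 libraries. Farsa lay below Fars2, Lars below Lars2 and Yars below Yars2. Lars, the cytosolic leucine enzyme, averaged 0.874 FPKM in MG, 2.01 FPKM in MZ and 0.924 FPKM in WT. Yars2, the mitochondrial tyrosine enzyme, had 4.99, 3.84 and 1.80 FPKM in MG, 6.45, 2.13 and 3.86 FPKM in MZ, and 2.88, 1.57 and 3.26 FPKM in WT.

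**Figure D2:**
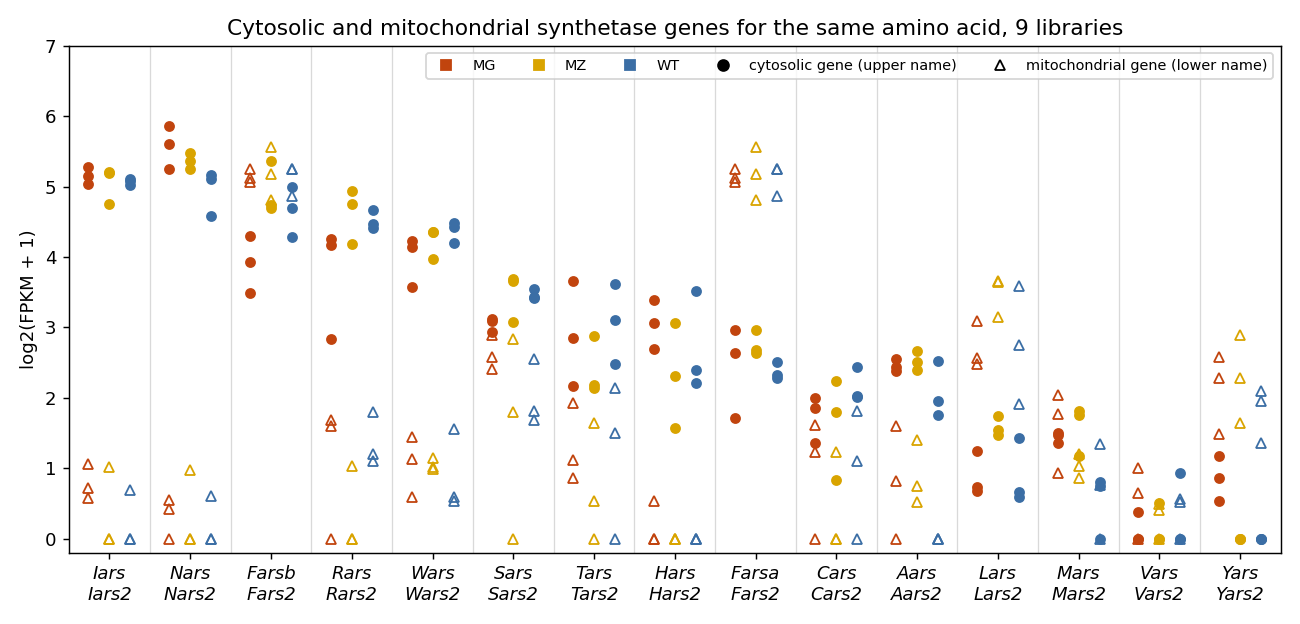
Levels as log2(FPKM + 1) of the cytosolic gene (filled circles) and the mitochondrial gene (open triangles) for the same amino acid, with 1 symbol per library and MG, MZ and WT from left to right in each column. The circles lie far above the triangles for the isoleucine and asparagine pairs, and the triangles lie above the circles for Farsa with Fars2, Lars with Lars2 and Yars with Yars2.

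Cytosolic phenylalanyl-tRNA synthetase is built of alpha subunits from Farsa and beta subunits from Farsb in equal number, and the RNAs of the subunits differed in level. Farsa had 4.76 FPKM in MG, 5.80 FPKM in MZ and 4.18 FPKM in WT on average, and Farsb 14.4 FPKM in MG, 30.2 FPKM in MZ and 24.8 FPKM in WT. Farsb was above Farsa in each of the 9 libraries. Protein was not measured.

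Several synthetase RNAs were at or near the limit of detection. Qars, the cytosolic glutamine enzyme, was listed at 0 in 8 libraries and at 0.715 FPKM in MZ 2, the value of 1 fragment. Vars, the cytosolic valine enzyme, was listed at 0 in 6 libraries, and its summed fragments were about 1 in MG, 1 in MZ and 2 in WT. Hars2, the mitochondrial histidine enzyme, was above 0 in MG 3 alone. These are levels not detectable at this depth and not evidence of absence. The number of synthetase genes above 0 was 31, 31 and 34 in MG, 25, 29 and 32 in MZ, and 31, 29 and 24 in WT. MG 3, with the most genes, is also the library in which 1 fragment was worth the least FPKM.

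Yars, the cytosolic tyrosine enzyme (chromosome 4, 129189760 to 129219607), was above 0 in MG alone. It had 0.807, 1.25 and 0.452 FPKM in the 3 MG libraries and was listed at 0 in the 6 MZ and WT libraries. The MG values are about 4 fragments in all. Yars overlaps C77080, and the part of shared reads was not tested. C77080 had 1.80, 0.348 and 0.240 FPKM in MG, 0, 0.579 and 0.718 FPKM in MZ, and 0, 0 and 0.442 FPKM in WT. Of all 24228 genes, 29 (0.120%) showed the same pattern, and 15443 of the 24228 were above 0 in any library. Aars2, the mitochondrial alanine enzyme, was at 0 throughout WT and had 2.04, 0 and 0.763 FPKM in MG and 0.683, 0.437 and 1.63 FPKM in MZ, about 5 fragments in each of MG and MZ. Of all 24228 genes, 71 (0.293%) were likewise at 0 in all WT and above 0 in all MZ libraries. Neither gene passed the filter for testing.

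The test took genes that reached 1 FPKM in 3 or more of the 9 libraries, which kept 10801 genes and 27 of the 36 synthetases (17 cytosolic and 10 mitochondrial). The untested 9 were Qars, Vars, Yars, Aars2, Ears2, Hars2, Iars2, Nars2 and Vars2. The test was limma on log2(FPKM + 1), with Benjamini-Hochberg adjustment over all 10801 genes and a threshold of 0.05 on the adjusted p. On this scale the change of a low gene is understated.

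The comparison of MG with WT asks whether Mtor deletion by Gdf9-Cre altered the synthetase RNAs. No synthetase passed: 0 of 27 had an adjusted p under the threshold, where 0.343% of all tested genes did, and 3 of 27 had an unadjusted p under 0.05 (17.7% of all tested genes). The median difference of the 17 tested cytosolic genes was 0.07 and that of the 10 mitochondrial genes 0.12, against 0.04 over all tested genes. Cytosolic genes were positive in 10 and negative in 7 cases, mitochondrial genes in 7 and 3. The values of the groups did not overlap for 6 of 27 synthetases, against 21.5% of all tested genes (a share near that background). Of these 6, Kars, Mars and Nars were higher in MG (11.6% of all tested genes were), and Cars, Rars and Sars were lower (9.89%).

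Nars, the cytosolic asparagine enzyme (chromosome 18, 64499647 to 64516652), had 37.1, 47.8 and 56.9 FPKM in MG, 43.5, 36.9 and 40.2 FPKM in MZ, and 23.0, 33.6 and 34.7 FPKM in WT. All MG and all MZ values lay above all WT values, and MG and MZ overlapped. The MG-WT difference was 0.62 ± 0.23 (SE) in log2(FPKM + 1), with an interval of 0.11 to 1.14 and a limma adjusted p of 0.21, and it was 0.48 without MG 3. The MZ-WT difference was 0.41 ± 0.23 (limma adjusted p = 0.81), and 0.23 without WT 1. Both comparisons use the same WT libraries. In the authors' deposited table Nars had q-values of 0.0845 for MG and WT and 0.333 for MZ and WT.

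Kars, the lysine enzyme of the multisynthetase complex (chromosome 8, 111993443 to 112011323), had 9.70, 6.42 and 10.6 FPKM in MG, 5.95, 2.29 and 5.69 FPKM in MZ, and 3.09, 5.63 and 6.35 FPKM in WT. Every MG library lay above every MZ and WT library, the nearest gap being that of MG 2 to WT 3. The difference was 0.74 ± 0.40 relative to WT (limma adjusted p = 0.37) and 0.87 ± 0.40 relative to MZ (limma adjusted p = 0.29). Without MG 3 these were 0.61 and 0.74. The difference from WT was 0.48 without WT 1, and that from MZ was 0.515 without MZ 2. About 38 fragments in MG, 17 in MZ and 16 in WT lie behind these values.

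Mars, the methionine enzyme of the complex, had 1.57, 1.82 and 1.76 FPKM in MG, 2.36, 2.52 and 1.25 FPKM in MZ, and 0.679, 0.745 and 0 FPKM in WT. The WT values were below all others. They rest on about 9 fragments in MG, 10 in MZ and 2 in WT. The MG-WT difference was 0.92 ± 0.40 (limma adjusted p = 0.26), or 0.91 without MG 3. That of MZ and WT was 1.06 ± 0.40 (limma adjusted p = 0.74). With a pseudocount of 0.1 these were 2.17 and 2.35. Mars overlaps Ddit3, a far higher gene (54.8 to 96.3 FPKM in MG, 50.7 to 88.3 FPKM in MZ and 63.4 to 116.5 FPKM in WT), and the part of shared reads was not tested.

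Rars, the arginine enzyme of the complex (chromosome 11, 35808381 to 35834506), had 18.1, 6.12 and 17.1 FPKM in MG, 26.1, 29.8 and 17.1 FPKM in MZ, and 24.5, 20.4 and 21.1 FPKM in WT. All MG values were below all WT values, and MG 2 stood far below the other 2 MG libraries. Relative to WT the MG difference was -0.76 ± 0.37 (limma adjusted p = 0.32). It was -0.98 without MG 3 and -0.30 without MG 2.

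Sars, the cytosolic serine enzyme, had 7.50, 7.73 and 6.66 FPKM in MG, 11.9, 11.7 and 7.48 FPKM in MZ, and 9.73, 10.7 and 9.82 FPKM in WT. The MG values were tightly grouped and below all WT values, and MZ 3 lay among them. For MG and WT the difference was -0.42 ± 0.27 (limma adjusted p = 0.46). It was -0.36 without MG 3, and -0.07 (limma adjusted p = 0.91) with the libraries scaled to equal FPKM sums.

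**Figure D3:**
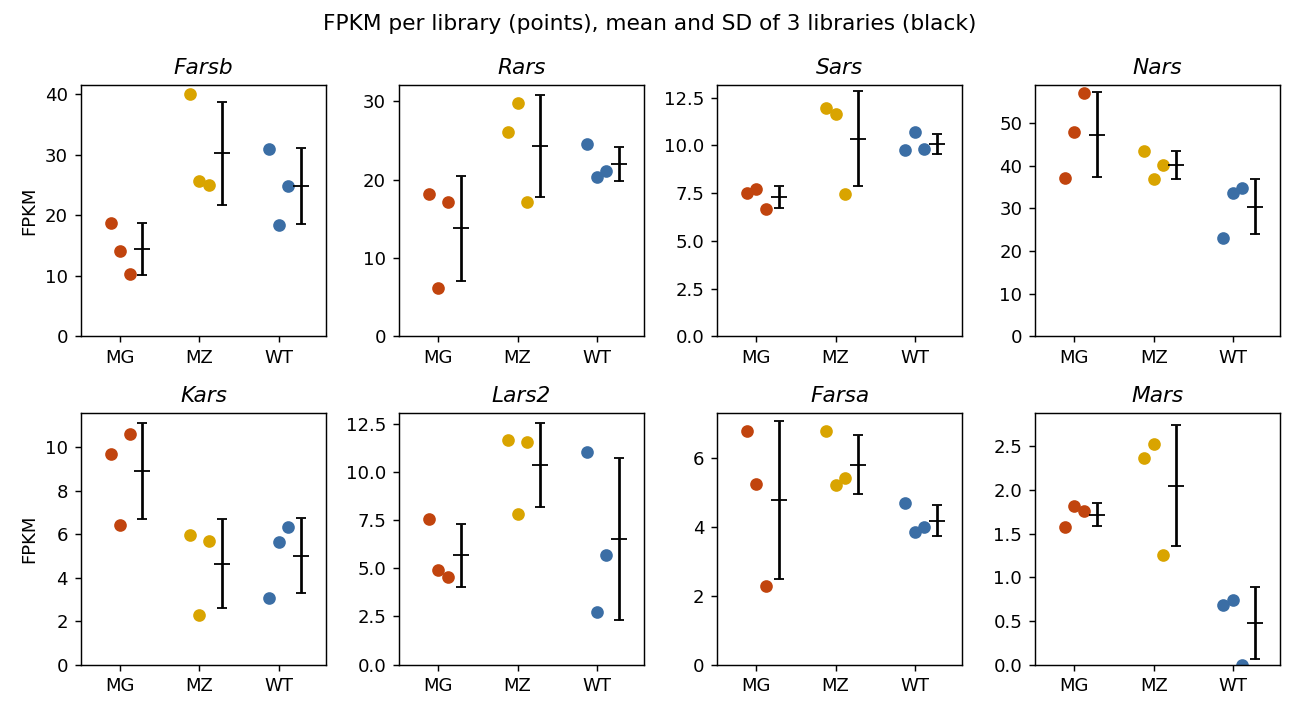
FPKM of 8 synthetase genes, with 1 point per library and the mean and SD of the 3 libraries in black, each panel with its own axis from 0. Farsb, Rars and Sars are lower in MG than in WT on average, Nars and Kars are higher, and in Mars the 3 WT points lie below all others.

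For Zp3-Cre the same question is put by MZ and WT. Again 0 of 27 synthetases passed, where 0.037% of all tested genes did, and 1 of 27 (Mars) had an unadjusted p under 0.05, against 6.30% of all tested genes. The median difference was 0.11 for the cytosolic and -0.01 for the mitochondrial genes, with 0.01 over all tested genes. The groups did not overlap for 5 of 27 synthetases, against 12.2% of all tested genes. Higher in MZ were Farsa, Lars, Mars and Nars (5.67% of all tested genes were), and lower was Rars2 (6.52%), the mitochondrial arginine enzyme. Farsa (chromosome 8, 84856989 to 84869257), the alpha subunit of the cytosolic phenylalanine enzyme, had 6.78, 5.23 and 2.27 FPKM in MG, 6.77, 5.21 and 5.40 FPKM in MZ, and 4.69, 3.85 and 3.99 FPKM in WT. Its MZ-WT difference was 0.39 ± 0.37 (limma adjusted p = 0.89). Rars2 rests on about 5 fragments in MG, 1 in MZ and 4 in WT, and its MZ-WT difference was -1.02 ± 0.54 (limma adjusted p = 0.79). MZ 3, WT 1 and WT 3 each held about 1 fragment of Rars2, so in fragments its groups touch. Lars held about 3, 5 and 5 fragments in MZ and 1, 3 and 1 in WT, so its groups touch likewise.

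MG was also set against MZ, which tests whether the knockouts differ. Here too 0 of 27 synthetases passed, where 0.130% of all tested genes did, and 2 of 27 (Farsb and Rars) had an unadjusted p under 0.05, against 17.6% of all tested genes. The groups did not overlap for 4 of 27, against 25.2% of all tested genes. The 4 genes were Kars, higher in MG (12.8% of all tested genes were), and Farsb, Lars and Lars2, lower in MG (12.3%). For Lars, MG 2 and MZ 1 each held about 3 fragments, so in fragments its groups touch. The median difference was -0.06 for the cytosolic genes and 0.44 for the mitochondrial genes, with 0.04 over all tested genes. The mitochondrial median rests on genes of few fragments. It was 0.56 without MG 3 and 0.13 without MG 2. Over Fars2, Lars2 and Pars2, the mitochondrial genes that reached a mean of 5 FPKM, it was -0.03. That is the value of Fars2 alone, with Lars2 at -0.77 and Pars2 at 0.34. The difference furthest from 0 was that of Sars2, the mitochondrial serine enzyme, at 1.08 ± 0.62 (limma adjusted p = 0.39). Sars2 had 6.43, 4.96 and 4.31 FPKM in MG, 0, 2.47 and 6.14 FPKM in MZ, and 2.22, 4.87 and 2.52 FPKM in WT, and its groups overlapped. Its MG-MZ difference was 1.19 without MG 3 and 0.31 without MZ 1, the library listed at 0.

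Farsb (chromosome 1, 78417975 to 78488897), the beta subunit of the cytosolic phenylalanine enzyme, had the smallest p of the family in that comparison. It had 18.8, 14.2 and 10.3 FPKM in MG, 40.0, 25.7 and 25.0 FPKM in MZ, and 31.0, 18.4 and 24.9 FPKM in WT. The MG values were below all MZ values, and MG 1 alone exceeded the lowest WT library. The MG-MZ difference was -1.02 ± 0.30 in log2(FPKM + 1), with an interval of -1.68 to -0.37, an unadjusted p of 0.0057 and a limma adjusted p of 0.11. Without MG 3 it was -0.82 (limma adjusted p = 0.29), and over the alternatives run the adjusted p ran from 0.0744 to 0.324. The MG-WT difference was -0.75 ± 0.30 (limma adjusted p = 0.23), or -0.54 without MG 3, and the MZ-WT difference 0.27 ± 0.30 (limma adjusted p = 0.90). The MZ-WT value was 0.06 without MZ 1, 0.08 without WT 2 and 0.44 without WT 1. The authors' deposited table gave Farsb a q-value of 0.0107 for MG and MZ, and 0.0925 for MG and WT. About 46 fragments in MG, 92 in MZ and 67 in WT lie behind the values, and the locus overlaps Sgpp2, which was at 2.53 FPKM or less in all libraries.

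Rars was the other synthetase that the authors' deposited table called between MG and MZ, with a q-value of 0.0342. Its MG-MZ difference was -0.87 ± 0.37 (limma adjusted p = 0.25), and MG 1 lay above MZ 3. Without MG 3 it was -1.08, and without MG 2 it was -0.41. The authors' deposited table gave a p-value of 1 to 30 of the 36 synthetases in each pair of groups, and a p-value under 1 to Fars2, Farsb, Iars, Nars, Rars and Wars. Among genes with a p-value under 1 in that table, 26.5% had a q-value under 0.05 between MG and MZ. The same table called 0 synthetases for MG and WT or for MZ and WT, where 12.7% and 2.55% of such genes were called. Lars2 had an MG-MZ difference of -0.77 ± 0.42 (limma adjusted p = 0.37), and -0.65 without MG 3. Its WT values overlapped both other groups.

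**Figure D4:**
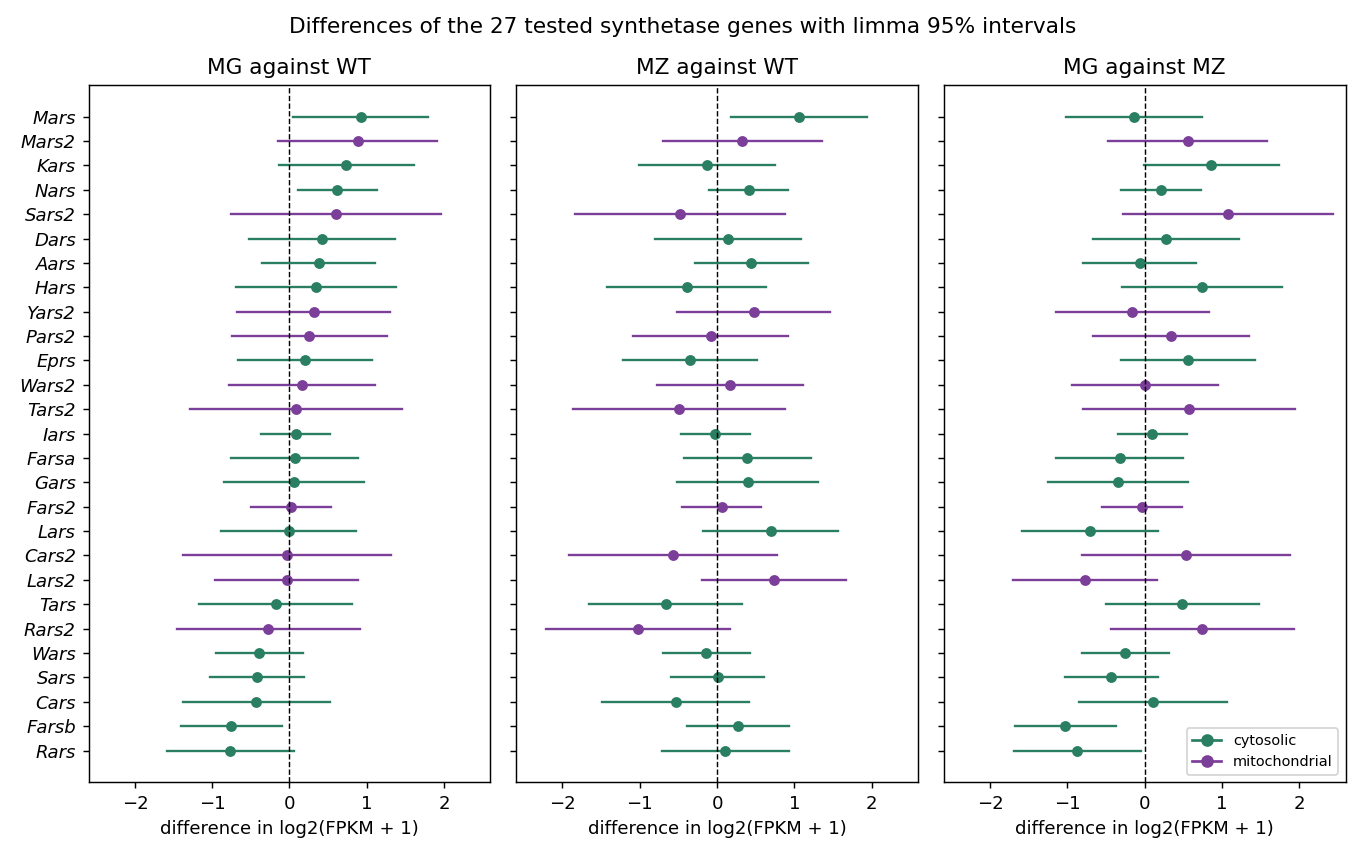
Differences in log2(FPKM + 1) of the 27 tested synthetase genes in the 3 comparisons, with limma 95% intervals (not adjusted for the number of genes), ordered by the first panel. Most intervals span 0. In the third panel those of Farsb and Rars lie below it, and neither gene passed after adjustment over all genes.

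By place in the cell, the 7 tested synthetases of the multisynthetase complex (Dars, Eprs, Iars, Kars, Lars, Mars and Rars) had a median MG-WT difference of 0.21 and the 10 tested free cytosolic enzymes -0.06. Within the complex the values ran from -0.76 for Rars to 0.92 for Mars, with 5 positive and 2 negative. By enzyme fold, the 18 genes of class I had a median WT level of 0.943 FPKM and the 17 of class II 5.74 FPKM (Eprs holds both folds and was left out). Their median MG-WT differences were -0.02 for the 12 tested genes of class I and 0.17 for the 14 of class II, against 0.04 over all tested genes.

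The 36 synthetases summed to 262.0 ± 11.6 FPKM in MG, 272.0 ± 12.4 FPKM in MZ and 250.8 ± 2.80 FPKM in WT (SD, n = 3 each). As a share of the FPKM sum of each library this was 0.0529 ± 0.0048% in MG, 0.0406 ± 0.0016% in MZ and 0.0387 ± 0.0044% in WT. All MG shares lay above all MZ and WT shares, and all MG sums over all genes lay below those of MZ and WT. With the FPKM sums of the libraries made equal, the median MG-WT difference was 0.36 over all tested genes, 0.39 over the cytosolic and 0.38 over the mitochondrial synthetases, and 0 synthetases passed. Under that scaling the MG-WT difference was 1.00 for Nars, 1.08 for Kars, 1.14 for Mars, -0.38 for Farsb and -0.40 for Rars. The MG-MZ difference was then -0.61 for Farsb, -0.47 for Rars and -0.40 for Lars2.

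Among the genes with a promoter window, those with the ATF4 element core in it had differences of both signs. Nars, Rars, Wars and the others without a window were not searched. In MG against WT the differences were 0.38 for Aars, 0.05 for Gars, 0.08 for Iars and -0.18 for Tars, and in MZ against WT 0.44, 0.40, -0.02 and -0.67 in the same order. None passed the limma test, and Yars was not tested. Aars, the alanine enzyme, had 4.86, 4.23 and 4.43 FPKM in MG, 4.28, 4.69 and 5.34 FPKM in MZ, and 4.74, 2.89 and 2.39 FPKM in WT. WT 1 lay within the MG and MZ values. Its MG-WT difference was 0.39 without MG 3, 0.60 without WT 1 and 0.22 without WT 3. Aars overlaps Exosc6, which had 30.5, 28.2 and 12.5 FPKM in MG, 10.1, 6.51 and 12.96 FPKM in MZ, and 10.6, 17.3 and 7.98 FPKM in WT, and the part of shared reads was not tested. Atf4 itself had 136.3, 113.4 and 53.6 FPKM in MG, 334.9, 231.5 and 282.1 FPKM in MZ, and 327.1, 161.5 and 144.3 FPKM in WT. In FPKM as deposited all MG values were below all MZ and WT values, with MG 3 the lowest. Relative to the FPKM sum of its library, MG 1 (sum 554305) lay above WT 3 (sum 654424). WT 1 was far above WT 2 and WT 3. The Atf4 differences without MG 3 or with equal FPKM sums are not given here. The MG-MZ difference was -1.56 ± 0.37 (limma adjusted p = 0.0818) and the MG-WT difference -1.06 ± 0.37 (limma adjusted p = 0.18). That of MZ and WT was 0.50 ± 0.37 (limma adjusted p = 0.86). Eif2ak4, the gene of GCN2, averaged 1.25 ± 0.21 FPKM in MG, 1.83 ± 0.60 FPKM in MZ and 0.675 ± 0.21 FPKM in WT. It was higher than WT in every MG and MZ library, and did not pass (limma adjusted p = 0.59 for MG and 0.79 for MZ). ATF4 is controlled largely at translation, which was not measured.

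Other genes of tRNA charging and delivery were read from 5 lists. Tested were 3 of 3 scaffold genes, 9 of 10 genes of proofreading and tRNA-dependent amidation or formylation, 26 of 29 of tRNA maturation and export, 7 of 8 of delivery to the ribosome and 19 of 22 of the amino acid response. No gene of these lists passed the limma test in any of the 3 comparisons. In MG against WT 1, 3, 3, 1 and 5 genes of the lists, in that order, had an unadjusted p under 0.05, where 17.7% of all tested genes did. The median MG-WT difference was -0.40, 0.33, 0.14, 0.22 and -0.11 in the same order of lists, against 0.04 over all tested genes. At that unadjusted level there were 0, 1, 2, 2 and 0 genes in MZ against WT, and 1, 3, 4, 1 and 4 in MG against MZ, where 6.30% and 17.6% of all tested genes did so. The scaffold Eef1e1 had 149.3, 134.0 and 130.9 FPKM in MG, 205.8, 213.6 and 190.1 FPKM in MZ, and 211.9, 190.9 and 225.8 FPKM in WT. In FPKM as deposited the MG values were below all others. Relative to the FPKM sum of its library, MG 3 (sum 428329) lay above WT 1 (sum 718684). The MG-WT difference was -0.60 ± 0.16 and the MG-MZ difference -0.55 ± 0.16 (limma adjusted p = 0.11 for each). Neither is given here with equal FPKM sums. The other scaffolds overlapped between MG and WT, with Aimp2 at 45.7 ± 20.4 FPKM in MG, 36.7 ± 2.02 FPKM in MZ and 59.5 ± 22.2 FPKM in WT (SD, n = 3 each), and Aimp1 at 5.31 ± 1.58 FPKM in MG, 8.72 ± 4.32 FPKM in MZ and 4.75 ± 2.48 FPKM in WT. Eef1e1 RNA was thus far more abundant per length than that of any synthetase.

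Closest to the threshold was Eef1d, a subunit of the exchange factor that reloads eEF1A with GTP. It had 18.7, 19.2 and 11.3 FPKM in MG, 27.96, 30.9 and 37.2 FPKM in MZ, and 51.2, 47.2 and 35.1 FPKM in WT. The MG values lay below all others in FPKM as deposited. The differences of Eef1d and of the genes below are not given with equal FPKM sums. Under that scaling the median MG-WT difference over all tested genes was 0.36, against 0.04 without it. The MG-WT difference was -1.41 ± 0.26 (limma adjusted p = 0.0544) and the MG-MZ difference -0.95 ± 0.26 (limma adjusted p = 0.0975). Mthfd2, a mitochondrial folate enzyme and known ATF4 target, averaged 73.8 ± 10.7 FPKM in MG, 114 ± 16.8 FPKM in MZ and 136 ± 22.8 FPKM in WT, with an MG-WT difference of -0.87 ± 0.20 (limma adjusted p = 0.0831). Chac1, a glutathione-degrading enzyme and also a known ATF4 target, had the opposite sign, with 14.8, 6.33 and 5.49 FPKM in MG, 3.27, 3.16 and 1.31 FPKM in MZ, and 0, 4.66 and 1.61 FPKM in WT. Its MG-WT difference was 1.89 ± 0.61 (limma adjusted p = 0.16). In the other direction, Dtd2, of the proofreading list, averaged 5.52 ± 2.01 FPKM in MG, 3.15 ± 0.82 FPKM in MZ and 1.43 ± 0.49 FPKM in WT, with an MG-WT difference of 1.41 ± 0.38 (limma adjusted p = 0.12). Aarsd1, an alanyl-tRNA editing protein, averaged 4.14 ± 1.62 FPKM in MG, 1.62 ± 0.36 FPKM in MZ and 0.577 ± 1.00 FPKM in WT, with a difference of 1.83 ± 0.47 (limma adjusted p = 0.11). Between MG and MZ, Impact, an inhibitor of GCN2 activation, averaged 4.59 ± 1.79 FPKM in MG, 0.712 ± 1.23 FPKM in MZ and 1.29 ± 1.31 FPKM in WT (MG-MZ limma adjusted p = 0.14). Prorsd1, of the proofreading list, averaged 6.49 ± 0.80 FPKM in MG, 2.39 ± 1.03 FPKM in MZ and 5.27 ± 2.47 FPKM in WT (MG-MZ limma adjusted p = 0.15). In MZ against WT the smallest p-values among genes higher in MZ were those of the elongation factors Eef1a1 and Eef2, and among genes lower in MZ those of Polr3k and Tsen54. Their limma adjusted p ran from 0.62 to 0.79.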

How the data were processed

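The authors amplified oocyte RNA by Smart-seq2, per the labels' protocols, and used TopHat2 2.0.13, Cufflinks 2.2.1 and Cuffdiff with mm10, per the submitters' processing notes. The authors deposited 1 FPKM value for each gene in each library. For each pair of groups the same deposited table gives p-values and q-values of the authors. Its 3 fold change columns were not used, since a spreadsheet error stands there for minus infinity. Strand handling and the annotation are not given in the sources used here. Of 24255 rows, 27 whose symbol had become a date were left out.

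From these, log2(FPKM + 1) was fitted with limma 3.58.1 in R 4.3.3 (eBayes with trend), all 9 libraries in 1 fit with 6 residual degrees of freedom. Genes that reached 1 FPKM in 3 or more libraries entered, 10801 in all. Tests were two-sided, with Benjamini-Hochberg adjustment within each comparison and a threshold of 0.05. Fragment numbers were estimated from the steps between low FPKM values, with an assumed fragment length of 300 bp, and are approximate. Of the values near or below the fitted value of 1 fragment, between 79.8% and 87.3% lay within 15% of it. That value was fitted on the same data, and larger steps were not checked in this way. The reads carry no stated molecular identifiers, so fragment numbers are not numbers of molecules. Coordinates are from GENCODE M21 (GRCm38), 1-based, and promoters from RefSeq.

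The synthetase genes, lists and tests were chosen with earlier results of these data known. Genes given in full are those that passed, up to 4 per direction and comparison without overlap and with at least 5 FPKM in the higher group, those with the highest WT means, and the pairs with extreme ratios. Sars2, Mars, Yars, Aars2, Aars and Chac1 were added after their values were seen. Libraries were compared by their correlation in log2(FPKM + 1), which was 0.882 to 0.940.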

Additional observations from a re-analysis of the deposited data

Results flagged for a closer look

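Farsb lay on opposite sides of the WT mean in the knockouts. Its mean was -10.37 FPKM from the WT mean in MG and 5.46 FPKM from it in MZ, with all MG libraries below the WT mean and all MZ libraries above it. MZ 3, at 24.98 FPKM, was barely above the WT mean of 24.77 FPKM, and the MZ-WT difference in log2(FPKM + 1) was 0.06 without MZ 1 and 0.08 without WT 2, against 0.27 with all libraries. The difference was tested directly as MG against MZ, where the limma adjusted p was 0.11. The same opposite pattern was seen in 789 of 10801 tested genes (7.30%).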

How the results depend on the processing

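In all 3 comparisons 0 synthetase genes passed under each of the 18 alternatives run, with limma adjusted p of at least 0.0744. The count over all genes moved. For MG against WT it was 37, and 17 with no filter, 66 with libraries scaled to the same FPKM sum, 21 with quantile normalization, 5 with the 2 groups alone, and 3 to 32 leaving out 1 library. For MZ against WT it was 4, and 2 with a pseudocount of 0.1, 2 with no filter, 0 at a mean of at least 5 FPKM, 1 with the same sum, 1 with quantile normalization, 7 with no variance trend, and 0 to 6 leaving out 1 library. For MG against MZ it was 14, and 6 with a pseudocount of 0.1, 9 with no filter, 41 at a mean of at least 5 FPKM, 31 with the same sum, 9 with no variance trend, 73 with the 2 groups alone, and 0 to 213 leaving out 1 library (0 without any 1 MZ library, 210 without MG 1, 213 without WT 1). With the replicate number as a block the counts were 13, 0 and 159, and the synthetase count stayed 0, but same-numbered libraries deviated from their group means with correlations of -0.07 to 0.07, so they share only a number.

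Scaling to the same sum moved the MG-WT median to 0.39 (cytosolic) and 0.38 (mitochondrial), and the MG-MZ medians to 0.30 and 0.68, where the median over all genes moved to 0.36 and 0.39. The cytosolic MG-MZ median was 0.16 at a mean of at least 5 FPKM and -0.24 with quantile normalization, and the mitochondrial one -0.033 at a mean of at least 5 FPKM and 0.13 to 0.56 leaving out 1 library. At a mean of at least 5 FPKM only Fars2, Lars2 and Pars2 remain of the mitochondrial genes, and the value is that of Fars2. Leaving out 1 library, signs reversed for Kars in MZ against WT (range -0.385 to 0.22, positive without MZ 2 or without WT 3) and Rars in MZ against WT (range -0.049 to 0.33, negative without MZ 2), and the sign of Mars in MG against MZ reversed with the same sum (0.15). None of these passed, and the cause was not tested. Genes below about 1 FPKM rest on single fragments.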
